A study of Mus musculus with 2 samples.

Results

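Elastic fibres and microfibrils were followed through 10 genes, all of them listed among the 32285 genes of both count matrices: Fbn1, Fbn2, Eln, Mfap4, Mfap5, Fbln1, Fbln2, Fbln5, Efemp1 and Lox. They were chosen by name and not by a cut on their values, with earlier results of these data known. The matrices hold single-cell RNA-seq counts of cultured adipose precursor cells from newborn mice, 1 library from white adipose tissue (WAT, subcutaneous) and 1 from brown adipose tissue (BAT, interscapular). Both groups were C57/BL6J mice of postnatal day 0 by their labels (the study's methods describe pups of day 1), which name no treatment or genetic change, with male and female pups pooled, and both cultures were grown to confluency over 4 days before capture. Collagenase digestion lasted 35 min for WAT and 50 min for BAT, so the depot and the digestion time cannot be told apart. Cells that had already attached and divided in a dish are a model of precursors and not of the intact tissue.

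Microfibrils are thin extracellular filaments built from fibrillins, and they serve as the scaffold on which soluble tropoelastin is laid down and cross-linked into an elastic fibre. Fibulins and microfibril-associated proteins bind the fibrillins, the elastin or both, and lysyl oxidase joins the lysines that make the fibre insoluble. Fibrillin microfibrils also hold latent TGF-β and BMP ligands, and in adipose tissue they belong to the matrix that surrounds precursors and growing fat cells.

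After the study's cell filters and without glial, myeloid and myogenic cells, 4332 of 5261 captured WAT cells and 5963 of 7009 captured BAT cells were precursors. Their median depth was 26950 and 26419 unique molecular identifiers (UMIs) per cell, and they summed to 122939077 and 169681957 UMIs. The precursor markers Pdgfra, Pdgfrb and Dlk1 were present in both depots, with summed levels of 772 and 614 counts per 1000000 UMIs (CPM), against 3.18 and 3.28 CPM for 3 endothelial markers. The interstitial progenitor markers Dpp4, Pi16, Cd55 and Sema3c summed to 22.6 and 21.7 CPM, with Dpp4 itself at 0.390 and 0.342 CPM. Barcodes shared by the libraries numbered 9. The study named clusters for all its precursors, and here these names were available for 1999 of each depot. In WAT they were committed adipogenic precursors (wCAPs), fibro-adipogenic progenitor-like cells (wFAPLs) and differentiating wFAPLs, with 15 of the 1999 cells. The adipose precursor clusters wAPC 1 to wAPC 4 made up the rest. BAT held bCAPs, bFAPLs and bAPC 1 to bAPC 5.

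A level below is the UMIs of a gene per 1000000 UMIs of the summed cells, with an exact 95% Poisson interval. A ratio is the log2 of one level over another, with an exact 95% binomial interval. With 1 library per depot there is no replicate, no p-value was computed, and every interval covers counting error only. The assay counts transcript ends, so CPM were not divided by gene length and are compared between populations for the same gene. The clusters were made from these same counts, so levels by cluster are a description and not a test.

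All 10 genes are protein coding in GENCODE M21 on build GRCm38. The fibrillin gene Fbn1 (ENSMUSG00000027204) spans chromosome 2 from 125300594 to 125507993 on the minus strand, and elastin, Eln (ENSMUSG00000029675), spans chromosome 5 from 134702593 to 134747323 on the minus strand. Mfap4 (ENSMUSG00000042436) lies on chromosome 11 from 61485431 to 61488900 and Mfap5 (ENSMUSG00000030116) on chromosome 6 from 122505845 to 122529290, both on the plus strand. Among the fibulins, Fbln1 (ENSMUSG00000006369) lies on chromosome 15 from 85205949 to 85286535 and Fbln2 (ENSMUSG00000064080) on chromosome 6 from 91212455 to 91272540, both on the plus strand. Fbln5 (ENSMUSG00000021186) is on the minus strand of chromosome 12 from 101746565 to 101819055, and Efemp1 (ENSMUSG00000020467), the gene of fibulin-3, is on the plus strand of chromosome 11 from 28853204 to 28926743. The identifiers of Fbn2 and Lox are ENSMUSG00000024598 and ENSMUSG00000024529.

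The promoters shown are those of Fbln1, Fbln5 and Efemp1, because each of these had a window outside annotated exons. These 3 fibulin genes were also the members with a higher level in BAT than in WAT precursors. Each line gives 240 bases, from 250 to 11 bases before the RefSeq transcription start on GRCm38.p6, read 5′ to 3′ on the strand of the gene, none of them in a GENCODE M21 exon. Capitals mark CCAAT and GGGCGG, or their reverse complements ATTGG and CCGCCC. The RefSeq table held promoters for 5 of the 10 genes, and the windows of Fbn1 and Fbln2 overlap annotated exons.
Fbln1 chr15:85205699-85205938 (plus strand): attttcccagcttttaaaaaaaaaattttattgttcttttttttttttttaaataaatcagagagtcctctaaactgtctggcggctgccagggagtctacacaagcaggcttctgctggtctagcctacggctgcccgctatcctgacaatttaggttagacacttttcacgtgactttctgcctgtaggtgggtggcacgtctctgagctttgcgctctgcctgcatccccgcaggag
Fbln5 chr12:101819130-101819369 (minus strand): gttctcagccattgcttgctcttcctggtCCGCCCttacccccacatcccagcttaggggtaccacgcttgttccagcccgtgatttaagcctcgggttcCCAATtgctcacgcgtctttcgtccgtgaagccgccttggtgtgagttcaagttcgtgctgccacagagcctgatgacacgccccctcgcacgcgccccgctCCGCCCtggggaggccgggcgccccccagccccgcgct
Efemp1 chr11:28852955-28853194 (plus strand): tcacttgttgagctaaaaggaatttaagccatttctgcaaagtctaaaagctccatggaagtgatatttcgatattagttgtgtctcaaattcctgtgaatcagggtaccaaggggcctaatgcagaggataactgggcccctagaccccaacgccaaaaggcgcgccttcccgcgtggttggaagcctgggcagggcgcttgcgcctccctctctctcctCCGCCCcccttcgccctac

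The Fbln5 promoter held GGGCGG at 2 places, starting 221 and 48 bases before the start and both read on the opposite strand, and CCAAT once, starting 150 bases before it. Efemp1 held GGGCGG once, 29 bases before the start and again on the opposite strand, and Fbln1 held neither motif. TATAAA was searched on both strands too and was in none of the 3. Over the 32851 RefSeq windows of this length, GGGCGG was in 31.3%, CCAAT in 33% and TATAAA in 12.1%, and no motif overlapped another. The GC content was 45.8% for Fbln1, 65% for Fbln5 and 53.3% for Efemp1, against a median of 52.1% over all windows.

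Fibrillin-2 set the depots apart most among the 10 genes. Fbn2, the fibrillin best known from embryonic and newborn microfibrils, had 831 CPM in WAT and 410 CPM in BAT precursors, a log2 ratio of 1.02 (95% interval 1.00 to 1.03). It was the only member past a fold of 2, and 1.11% of the 9038 genes with at least 10 CPM in either depot were past that fold toward WAT. The fold of Fbn2 was borderline, and its ratio fell to 0.96 with male cells alone and to 0.78 with the clusters of each depot weighted equally. No member was past the fold toward BAT, where the share over all genes was 0.73%. The median log2 ratio of the 10 members was 0.20 and that of all tested genes 0.04.

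The other fibrillin differed less. Fbn1, which encodes the main fibrillin of mature tissues, was at 900 CPM (95% interval 895 to 905) in WAT and 793 CPM (789 to 797) in BAT, a log2 ratio of 0.18. Lox, the lysyl oxidase that cross-links elastin and collagen, was at 1004 and 858 CPM with a ratio of 0.23. Eln, the gene of tropoelastin, was at 180 and 152 CPM with a ratio of 0.25. Both were therefore somewhat higher in the WAT library, by less than the 0.48 that marks the 95th percentile of all tested genes.

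Of the microfibril-associated genes, Mfap5 was higher in the WAT library and Mfap4 was nearly level. Mfap5, which encodes MAGP-2, a fibrillin-binding glycoprotein, had 288 CPM in WAT and 232 CPM in BAT, a log2 ratio of 0.32. Mfap4, whose product binds elastin and fibrillin and is abundant in elastic tissues, had 133 and 126 CPM, a ratio of 0.07, near the 0.04 of the median gene.

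The fibulins were divided. Fbln2, the fibulin that binds fibronectin and fibrillin, had 1293 CPM in WAT and 1096 CPM in BAT, a log2 ratio of 0.24. Fbln5, needed for tropoelastin to be organised into fibres, had 107 CPM in WAT and 154 CPM in BAT, a ratio of -0.53 (95% interval -0.56 to -0.50). Efemp1 (66.1 and 84.6 CPM, ratio -0.36) and Fbln1 (58.8 and 69.1 CPM, ratio -0.23) were also higher in BAT. The ratio of Fbln5 lay below the 5th percentile of all tested genes, which was -0.34, as did that of Efemp1.

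**Figure D1:**
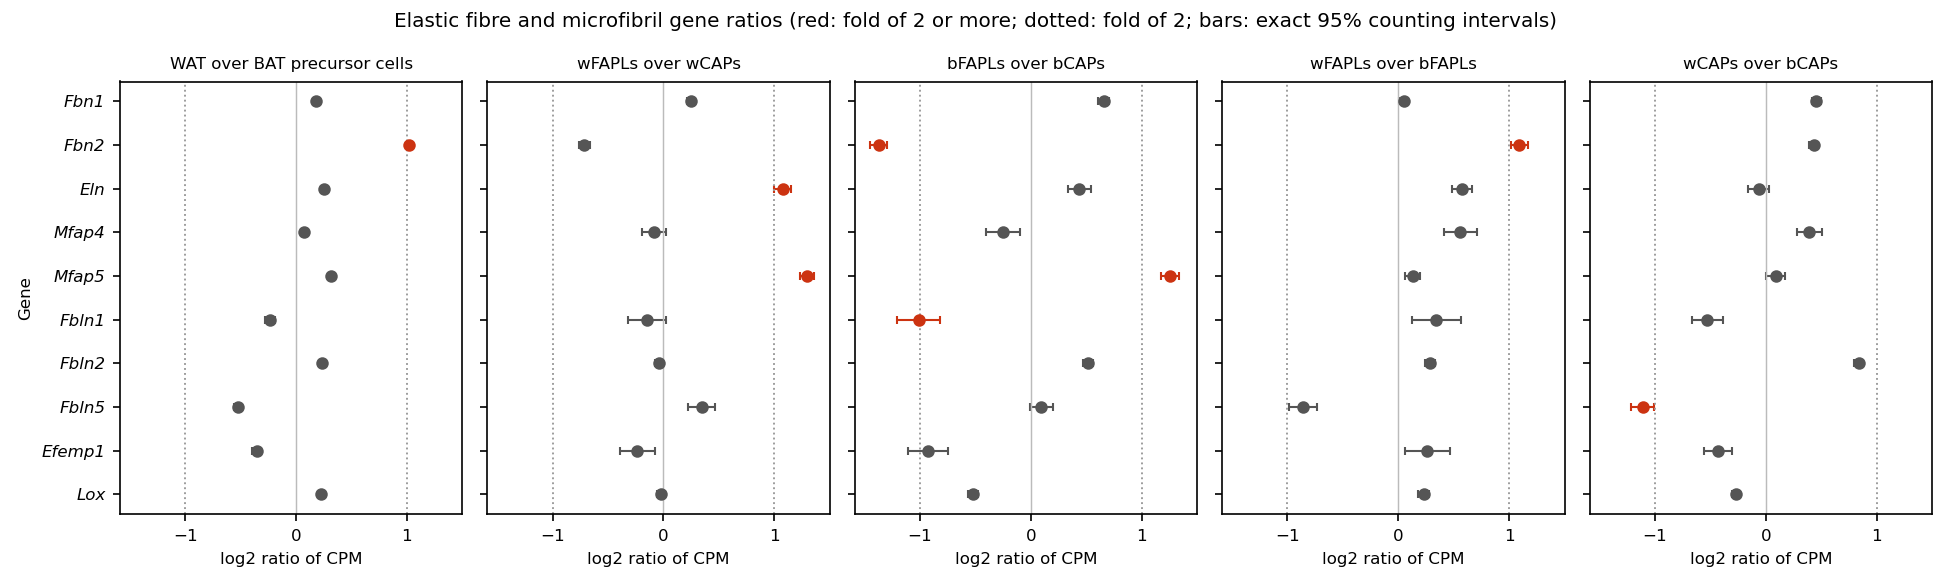
Log2 ratio of CPM (x axis) for each of the 10 genes (y axis) in the 5 comparisons, with exact 95% counting intervals, dotted lines at a fold of 2 and red points past it. Fbn2 is red in 3 panels, toward WAT over BAT (1.02), toward bCAPs over bFAPLs (-1.37) and toward wFAPLs over bFAPLs (1.09), and Mfap5 is red in both comparisons of FAPLs with CAPs.

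Levels in the other cell types of the cultures were lower. Glial cells of the same cultures, which should not build elastic fibres, held between 0 and 80.5 CPM of each member in WAT and between 5.96 and 154 CPM in BAT. The 0 was that of Efemp1, which allows up to 2.84 CPM at 3 counts. After each cell was thinned to 10000 UMIs, Fbn1 was found in 99.6% of WAT precursors and 17.4% of WAT glial cells, and Eln in 51.5% and 2.17%. The narrowest gap was that of Fbln1 in BAT, with 46.3% of precursors and 20.6% of glial cells. The median depth was 20107 UMIs for the 46 WAT glial cells and 19494.5 for the 68 BAT glial cells. Summed over all 10 genes, the level was 4861 CPM in WAT and 3975 CPM in BAT precursors against 179 and 460 CPM in glia and 230 and 498 CPM in myeloid cells. The 31 myogenic cells of the BAT culture reached 970 CPM, and Mfap4 stood at 66.1 CPM there, found in 38.7% of them after thinning.

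FAPLs of both depots carried more Mfap5, and in WAT more Eln, than the CAPs beside them. Mfap5 was at 520 CPM (95% interval 503 to 537) in wFAPLs and 212 CPM (205 to 218) in wCAPs, a log2 ratio of 1.30. In BAT it was at 475 CPM (460 to 491) in bFAPLs and 199 CPM (189 to 209) in bCAPs, a ratio of 1.26. The ratios in the depots were thus nearly the same size.

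Eln was at 333 CPM (95% interval 320 to 347) in wFAPLs and 158 CPM (152 to 164) in wCAPs, a log2 ratio of 1.08 with an interval of 1.00 to 1.15. In BAT it was at 224 CPM (213 to 235) in bFAPLs and 165 CPM (156 to 174) in bCAPs, a ratio of 0.44. The ratio in BAT was in the same direction and below a fold of 2, and that in WAT was 0.66 among male cells alone and 0.93 with cluster labels carried over to all precursors.

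Fbn2 had the opposite arrangement. It was at 571 CPM in wFAPLs against 937 CPM in wCAPs, a log2 ratio of -0.71, and at 268 CPM in bFAPLs against 694 CPM in bCAPs, a ratio of -1.37 (95% interval -1.45 to -1.30). Fbn1 went with the FAPLs, at 1100 against 926 CPM in WAT (ratio 0.25) and at 1065 against 674 CPM in BAT (ratio 0.66).

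In BAT the fibulin genes Fbln1 and Efemp1 were lower in FAPLs, while Fbln5 was at 205 CPM in bFAPLs and 192 CPM in bCAPs. Fbln1 was at 41.3 CPM (95% interval 36.8 to 46.1) in bFAPLs and 83.3 CPM in bCAPs, a log2 ratio of -1.01 (-1.21 to -0.82). Efemp1 was at 50.5 CPM in bFAPLs and 96.2 CPM in bCAPs, a ratio of -0.93. Fbln1 came to lie within the fold under 6 of the alternatives tried, at -0.98 to -0.79. In WAT the same ratios were -0.14 and -0.23, and the interval of the first included 0.

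Members past a fold of 2 toward wFAPLs numbered 2 of 10, Eln and Mfap5, where 2.25% of 9199 tested genes were, and none was past it toward wCAPs, where 1.6% were. In BAT 1 member, Mfap5, was past it toward bFAPLs (1.86% of 9148 tested genes), and 2, Fbn2 and Fbln1, toward bCAPs (2.01%). The median log2 ratio of the members was -0.03 in WAT and -0.08 in BAT, beside -0.01 and -0.04 for all tested genes. The list as a whole was therefore not shifted, and single members moved in both directions.

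Mural and adipocyte markers moved with these contrasts. The 8 mural markers, smooth muscle genes such as Acta2 among them, summed to 6220 CPM in wFAPLs and 3447 CPM in wCAPs, and to 7944 CPM in bFAPLs and 6175 CPM in bCAPs. Of the 8, all were at 10 CPM or more in both FAPL clusters, against 4 in wCAPs and 6 in bCAPs, and none was at 0. Most of each sum was Acta2 and Tagln. The sum was higher still in wAPC 1 (7624.5 CPM) and in bAPC 2 and bAPC 4 (8307 and 8967 CPM). In the other wAPC and bAPC clusters it was lower than in the FAPLs of the same depot. The 6 adipocyte markers summed to 234 CPM in wFAPLs and 768 CPM in wCAPs, and to 394 and 1007 CPM in the brown clusters. Their part in the differences was not tested. Among cells of the same cluster, the correlation of Eln with the summed mural markers was 0.09 in WAT and 0.11 in BAT over 1999 thinned cells each, which share a library and depth. That of Mfap5 was 0.07 and 0.03, that of Lox 0.09 and 0.10, and that of Fbln5 0.07 and 0.05. Other members went the opposite way, and the lowest values were those of Fbln2 (-0.10 and -0.14) and Mfap4 (-0.13 and 0.01). Efemp1 was at -0.07 and -0.11, Fbln1 at -0.08 and -0.03, Fbn1 at -0.03 and -0.04 and Fbn2 at -0.02 and -0.001.

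Set against each other across depots, the FAPLs differed past the fold in Fbn2 only. Its level was 571 CPM in wFAPLs and 268 CPM in bFAPLs, a log2 ratio of 1.09 (95% interval 1.01 to 1.17), where 1.04% of 9136 tested genes were past the fold toward wFAPLs. None was past it toward bFAPLs (0.646% of tested genes), and the nearest was Fbln5, at 113 CPM in wFAPLs and 205 CPM in bFAPLs with a ratio of -0.86. Fbn1 and Mfap5 were nearly level, with ratios of 0.05 and 0.13, while Eln was at 0.57 and Mfap4 at 0.56.

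The CAPs gave another order. Fbln5 was at 88.7 CPM in wCAPs and 192 CPM in bCAPs, a log2 ratio of -1.11 (95% interval -1.21 to -1.01), and was the only member past the fold, where 2.14% of 9235 tested genes were past it toward bCAPs. Fbln2 came next, at 1341 CPM in wCAPs and 750 CPM in bCAPs with a ratio of 0.84. No member was past the fold toward wCAPs, where 2.18% of tested genes were. Fbn2 had a ratio of 0.43 here and Eln one of -0.06, with an interval that included 0. Some markers differed between these clusters as well. The mural list was at 3447 CPM in wCAPs and 6175 CPM in bCAPs. Of the adipocyte markers, Fabp4 was at 85.9 and 302 CPM, while Lpl (589 and 611 CPM) and Pparg (92.5 and 92.8 CPM) were nearly level. Between the FAPLs the mural list was at 6220 and 7944 CPM, most of it Acta2 and Tagln. Myh11 (102 and 48.4 CPM), Kcnj8 (31.0 and 17.1 CPM) and Abcc9 (60.2 and 34.5 CPM) were higher in wFAPLs. The other mural markers were higher in bFAPLs. The part of these markers in the differences between depots was not tested. The median over the members was 0.27 between FAPLs and 0.01 between CAPs, beside 0.03 and 0.01 for all tested genes.

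The balance of the fibrillins did not depend on the total used for scaling. In WAT precursors 1.08 Fbn1 UMIs (95% interval 1.07 to 1.09) were counted per Fbn2 UMI, and in BAT precursors 1.93 (1.92 to 1.95). The CAPs of both depots had overlapping intervals, at 0.988 (0.968 to 1.01) in wCAPs and 0.972 (0.936 to 1.01) in bCAPs. The FAPLs stood apart from them and from each other, with 1.93 (1.86 to 2.00) in wFAPLs and 3.97 (3.78 to 4.17) in bFAPLs. Within WAT the lowest value was 0.838 in wAPC 2 and the highest 2.71 in wAPC 4, with 62 labelled cells. In BAT bAPC 1 to bAPC 4 lay between 1.93 and 2.28 and bAPC 5 at 1.48. The UMI ratio is no molar ratio, since capture can differ between transcripts, and is compared here only between populations.

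**Figure D2:**
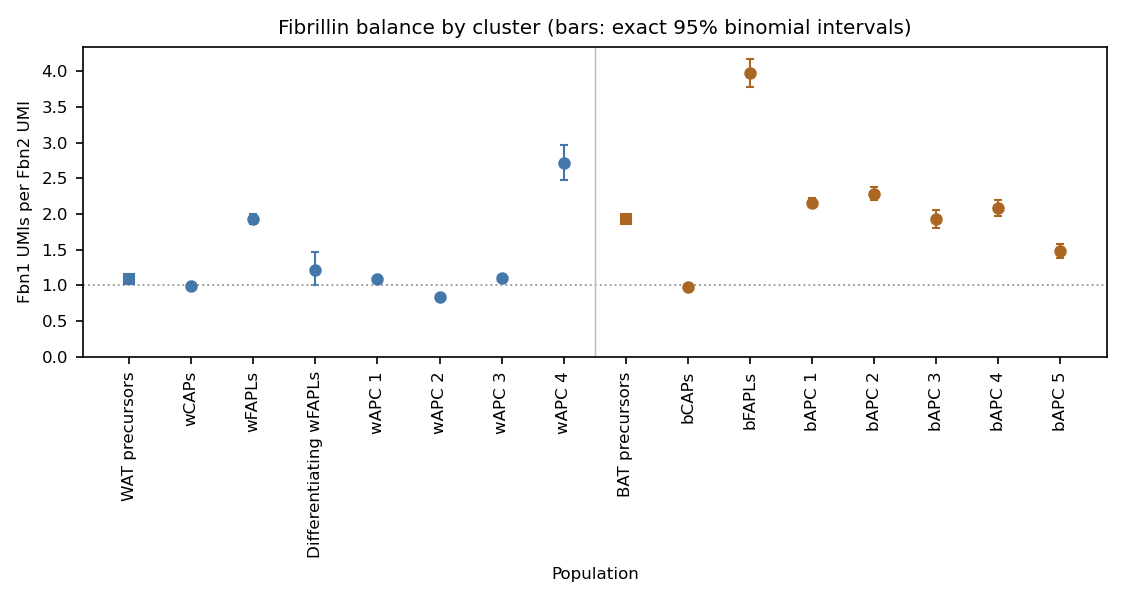
Fbn1 UMIs per Fbn2 UMI (y axis) in all precursors (squares) and in each cluster (circles) of WAT (blue) and BAT (brown), with exact 95% binomial intervals and a dotted line at equal counts. wCAPs (0.988) and bCAPs (0.972) sit at the line, and bFAPLs (3.97) are the highest of the 14 clusters.

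Across the remaining clusters, wAPC 4 was close to the wFAPLs in several members. Mfap5 was at 460 CPM there and Eln at 285 CPM, while wAPC 1, wAPC 2 and wAPC 3 lay between 248 and 256 CPM for Mfap5 and between 124 and 168 CPM for Eln. Neighbours within that group could not be separated for Mfap5 by their counting intervals. The same cluster had the lowest Fbn2 of WAT (379 CPM), the lowest Lox (535 CPM) and, leaving aside the 15 differentiating cells, the lowest Efemp1 (30.6 CPM). It also had the highest Mfap4 (197 CPM), which could not be separated from the 190 CPM of wAPC 2, and the highest Fbln1 (87.8 CPM).

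In BAT the cluster bAPC 3, with 49.1% of its cells scored as G2M, had the lowest Eln (76.7 CPM), Mfap5 (129 CPM) and Lox (654 CPM). Its white counterpart in phase, wAPC 3, with 46.7% in G2M, was lowest of the white clusters in Eln too, at 124 CPM, where it could not be separated from wAPC 2, but not in Mfap5 (248 CPM) or Lox (821 CPM). Efemp1 was highest in bAPC 1 at 111 CPM and lowest in bAPC 5 at 42.7 CPM, which could not be separated from the bFAPLs. Fbln2 was at 750 CPM in bCAPs and 782 CPM in bAPC 5, which could not be separated, and at 1284 CPM in bAPC 1. Lox was highest in bCAPs at 1292 CPM, followed by 994 CPM in bAPC 4. Fbln5 was highest in bFAPLs, bCAPs and bAPC 4 (205, 192 and 181 CPM), and neighbours in that order could not be separated.

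The 15 labelled differentiating wFAPLs differed from the other clusters in several members, though not in all. No Mfap4 UMI was counted in them, which allows up to 6.29 CPM at 3 counts, against 127 CPM in wFAPLs. Fbln1 was at 10.5 CPM from 5 UMIs, Efemp1 at 14.7 CPM from 7 and Fbln5 at 25.2 CPM from 12, and Fbln2 was at 526 CPM against 1306 CPM in wFAPLs. Lox was at 1510 CPM (95% interval 1401 to 1624), the highest of the 14 clusters, and Eln at 346 CPM was not separated from the wFAPLs. Mfap5, at 394 CPM, and Efemp1 were not separated from wAPC 4 (460 and 30.6 CPM). The mural markers summed to 36144 CPM in these cells, with Acta2 at 24519.5 CPM and Myh11 at 2522 CPM. Of that list, Cspg4 was lower than in wFAPLs (4.19 and 20.6 CPM) and Abcc9 was nearly level (60.8 and 60.2 CPM). The other mural markers were higher than in wFAPLs. The adipocyte markers summed to 1245 CPM, most of it Fabp4 (1006 CPM), against 234 CPM in wFAPLs. The part of these markers in the levels was not tested.

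**Figure D3:**
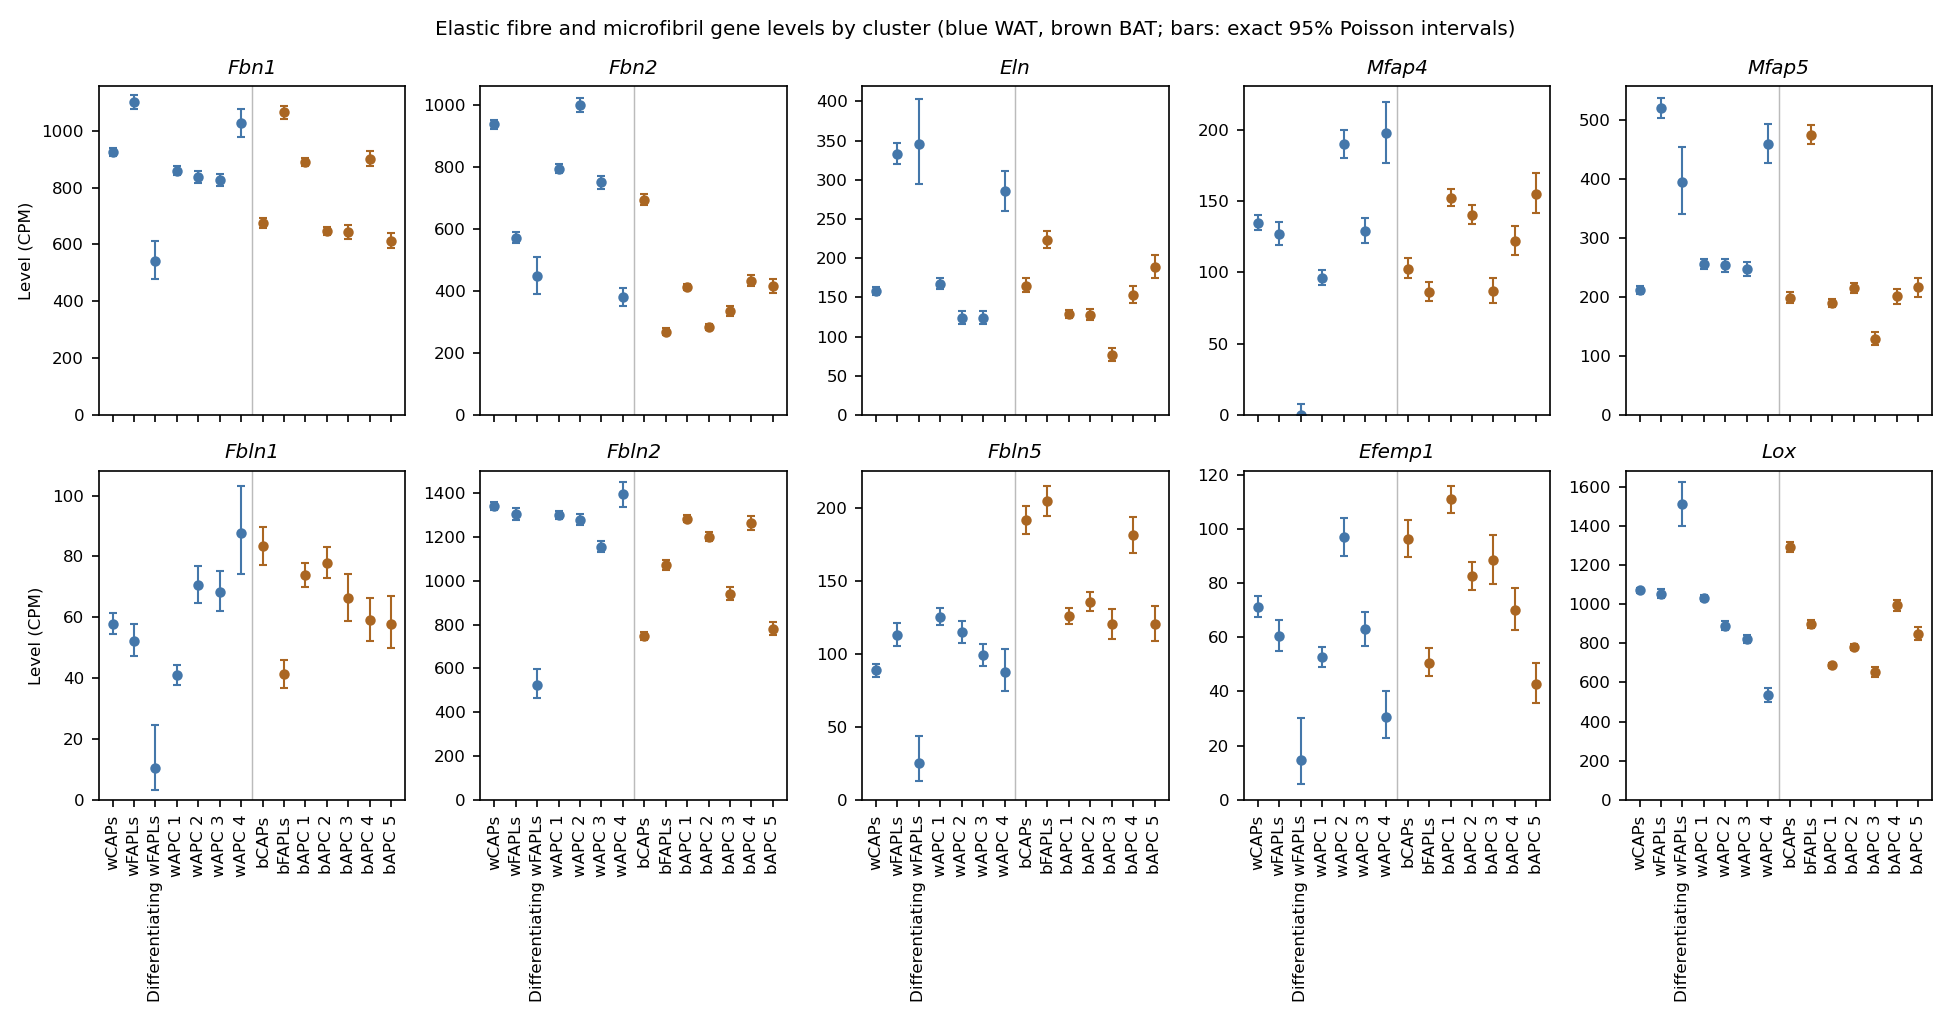
Level in CPM (y axis, from 0) of each gene in the 7 WAT clusters (blue) and the 7 BAT clusters (brown), with exact 95% Poisson intervals. Mfap5 is high in wFAPLs (520), wAPC 4 (460) and bFAPLs (475), Fbn2 is high in wAPC 2 (1000), wCAPs (937) and bCAPs (694), and Mfap4 is at 0 in the differentiating wFAPLs.

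Elastin was spread unevenly over the cells. After thinning to 10000 UMIs, the median WAT precursor held 1 Eln UMI and the highest 50, and the top 433 of 4331 cells carried 56.0% of all Eln UMIs. In BAT the median was 0, the highest 41, and the top 596 of 5963 cells carried 57.4%. Fbln2, by contrast, was in nearly every cell, with medians of 12 and 10 UMIs, and the top cells carried 18.6% and 20.3% of it. Low genes reach a high share in few cells by counting alone, and Eln had means of 1.78 and 1.51 UMIs per thinned cell. Mfap4, with means of 1.38 and 1.30, had 38.7% and 40.0% in the top cells, and Fbln5 in BAT, with a mean of 1.53, had 34.5%. Efemp1 came close to Eln, with 52.3% and 48.4%, at the lower means of 0.70 and 0.85.

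The Fano factor, the variance over the mean, is near 1 for pure counting at any mean and grows with the mean of a gene that varies between cells. For Eln it was 8.60 in wAPC 1, 7.64 in wFAPLs, 7.38 in bFAPLs and 6.66 in bCAPs, above the 99th percentile of all genes with at least 0.1 UMIs per cell in those clusters (3.78, 4.31, 4.17 and 4.01). The exceptions were wAPC 3 and bAPC 3, at 3.27 and 2.38, below their 99th percentiles of 3.36 and 3.33. These are the clusters with the largest share of cells in G2M, and their mean Eln counts, 1.18 and 0.795 UMIs per thinned cell, were the lowest of their depots as well. At nearly the mean of wAPC 3, wAPC 2 with 1.19 had a Fano factor of 4.95, above its 99th percentile of 3.57.

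Fbn2 was uneven in WAT, with Fano factors of 3.80 to 5.70 in its 5 clusters of more than 100 cells, and of 1.99 to 3.45 in BAT. The WAT values were all above the 99th percentile there, which was not matched to the mean of the gene. Lox in wAPC 3, with a mean of 8.14 UMIs, also passed it (3.46 against 3.36), as did Mfap5 in bAPC 2 (3.54 against 3.43). At a like mean, wAPC 3 with 7.66 Fbn2 UMIs per thinned cell had 3.80 and bCAPs with 7.26 had 3.01. Fbln1 had the lowest values, 1.05 to 1.55 in all clusters but the wFAPLs, where it was 1.97, beside a median of 1.06 to 1.08 for all genes. The other members lay between 1.40 and 3.85.

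**Figure D4:**
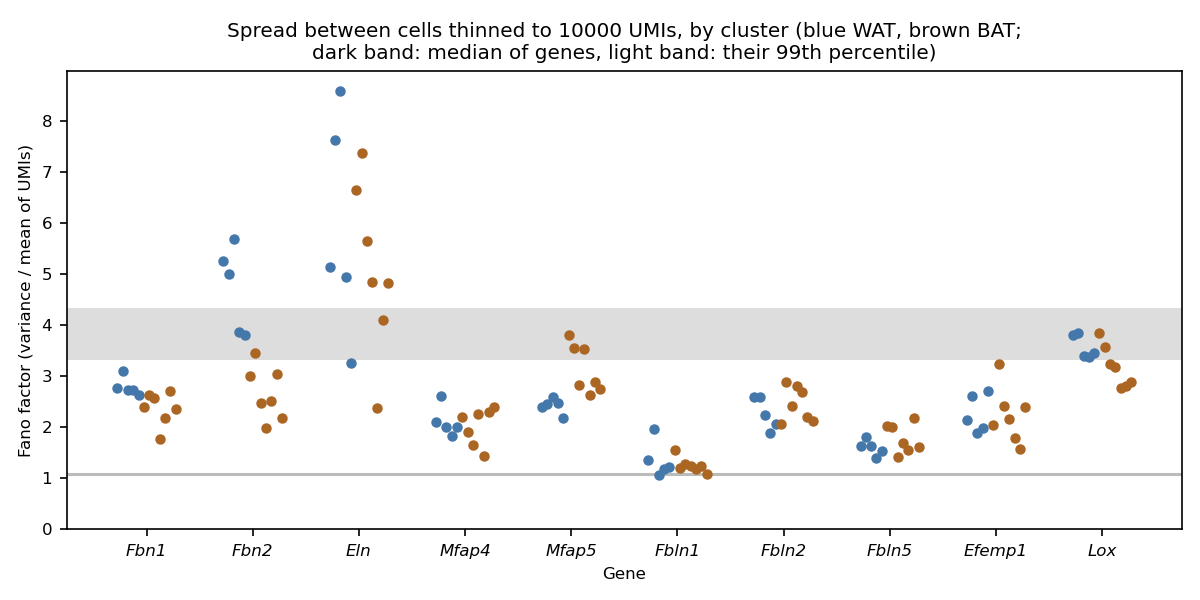
Fano factor of UMIs per cell after thinning to 10000 UMIs (y axis, from 0) for each gene in the 12 clusters with more than 100 cells, blue WAT and brown BAT. The dark band is the range of the median over genes, near 1, and the light band that of the 99th percentile, and Eln lies above the light band in most clusters, reaching 8.60.

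Cycle phase moved several members a little, and the ratios by sex of the cell lay in a narrower range. S-phase cells held less Mfap4 than G1 cells, with log2 ratios of -0.45 in WAT and -0.33 in BAT, and G2M cells held less too, at -0.50 and -0.37. Fbn1 was lower in S phase by -0.21 and -0.18 and in G2M by -0.25 and -0.34, and Fbn2 in S phase by -0.41 and -0.24. Eln was lower in G2M by -0.10 and -0.37. Fbln5 went the other way in S phase, at 0.26 and 0.10, and Fbln1 in G2M, at 0.10 and 0.24. Over all tested genes the median was between -0.04 and 0.00 in these contrasts.

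Female over male cells gave ratios between -0.21 and 0.10 over the 10 genes in both depots, with Eln in BAT the largest at -0.21. The sex of a cell was read from Xist and Y-linked genes, which left 151 WAT and 264 BAT precursors without a call. The depot ratio of Fbn2 was 1.07 within G1 cells, 0.91 within S, 0.95 within G2M, 1.03 within female and 0.96 within male cells. Fbln5 stayed between -0.59 and -0.39 in the same strata, so neither difference was confined to a phase or a sex.

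**Figure D5:**
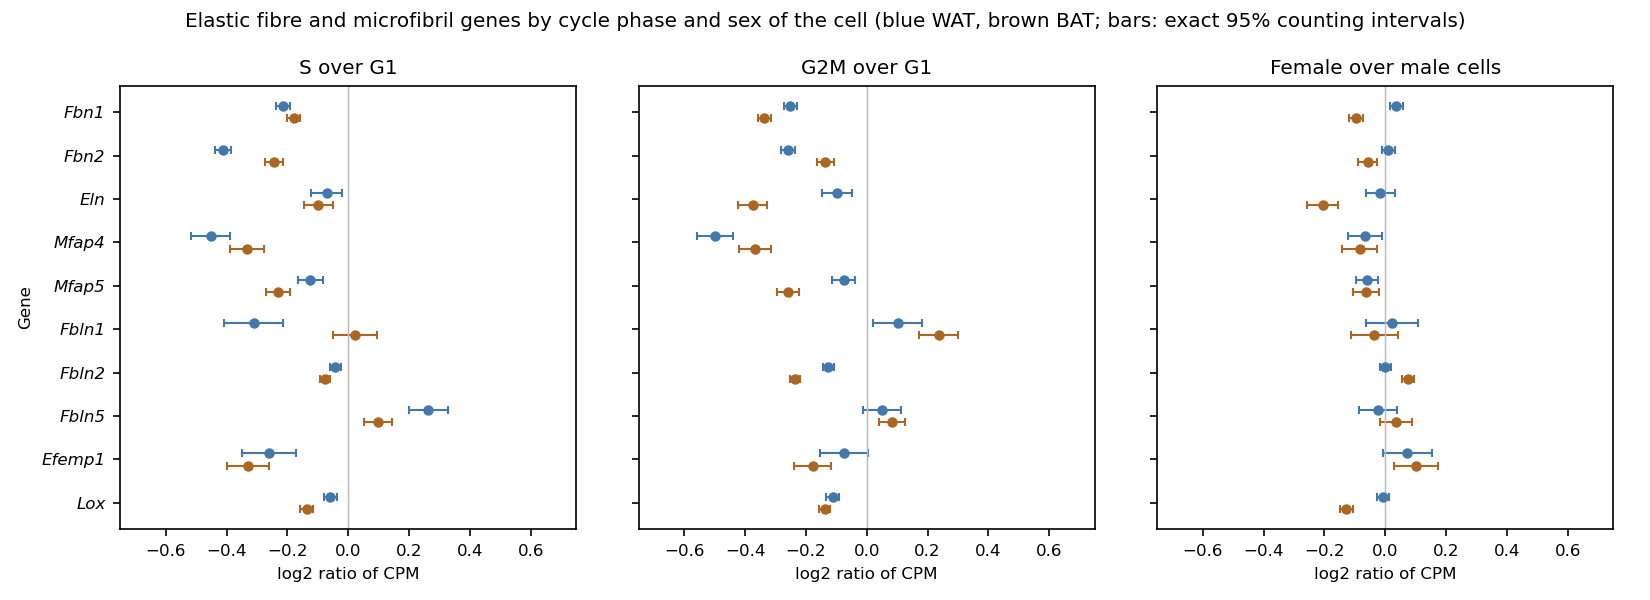
Log2 ratio of CPM (x axis) of S over G1, G2M over G1 and female over male cells for each gene (y axis) in WAT (blue) and BAT (brown), with exact 95% counting intervals. The points of all genes but Fbln1 and Fbln5 lie left of 0 in both phases and both depots, and the sex ratios lie within -0.21 and 0.10.

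Of the 45 pairs of members, Eln and Mfap5 were the only pair with a Pearson correlation of log2(CPM + 1) of 0.8 or more both over all 14 clusters (0.88) and over 13 without the differentiating wFAPLs (0.88). Clusters of 1 library share that library, and these values are a description. Mfap4 and Fbln1 correlated at 0.93 over 14 clusters and at 0.56 over 13. In 17 of the 45 pairs the sign changed when those 15 cells were left out. From cell to cell within a cluster no pair was above 0.19, the value of Fbn1 and Fbln2 in WAT, and Eln and Mfap5 were at 0.12 and 0.13 over 1999 cells per depot.

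The nearest patterns outside the list were sought among 10229 genes over 14 clusters. The highest of so many correlations over so few points can be large by search alone. Mfap5 was most like Col4a2 (0.89 over 14 clusters, 0.92 over 13) and Plod1 (0.88 in both), a basement membrane collagen chain and a collagen lysyl hydroxylase. Eln was most like Fgf18 (0.89 and 0.86) and Ecm1 (0.88 and 0.84). Fbn2 was nearest to Arhgap18 (0.90 in both) and Tafa1 (0.86 and 0.91), and Fbn1 to Cyfip1 (0.90 and 0.87) and Plekhg3 (0.89 and 0.90). Lox was nearest to Cacna1a (0.94 and 0.91) and Araf (0.91 and 0.87), and Fbln2 to Heatr3 (0.94 and 0.89) and Plat (0.93 and 0.85).

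Mfap4 was nearest to Adck1 (0.99 over 14 clusters, 0.84 over 13) and Adcy3 (0.99 and 0.78), and Fbln1 to Dtd1 (0.96 and 0.78) and Panx1 (0.96 and 0.78). Fbln5 was nearest to Shc1 (0.95 and 0.88) and Trmt2a (0.95 and 0.81), and Efemp1 to Cic (0.91 and 0.78) and Rgcc (0.90 and 0.81). The mean pattern of the 10 genes was nearest to Steap3, Klhl12, Cep152, Col28a1 and Mdc1, with 0.91 to 0.93 over 14 clusters and 0.74 to 0.84 over 13.

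Around the 10 genes, 55 further genes of fibre assembly were listed, from cross-linkers and latent TGF-β binding proteins to ADAMTS-like proteins, ligands, integrins and elastases. Between depots 41 were tested, 2 were past the fold toward WAT and 2 toward BAT, where 1.11% and 0.73% of all tested genes were. Ltbp1, which tethers latent TGF-β to fibrillin, was at 47.5 CPM in WAT and 22.2 CPM in BAT (log2 ratio 1.10), and the integrin chain Itga8 at 14.1 and 6.74 CPM (1.07). Npnt, an integrin ligand of basement membranes, was at 4.47 and 16.0 CPM (-1.84), and the procollagen proteinase Tll1 at 14.2 and 28.5 CPM (-1.01).

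FAPLs of both depots were set apart from CAPs by Timp3, a matrix-bound inhibitor of metalloproteinases. It was at 1069 CPM in wFAPLs and 363 CPM in wCAPs (log2 ratio 1.56), and at 1053 CPM in bFAPLs and 339 CPM in bCAPs (1.64). In WAT Tll1 was past the fold as well, at 1.12, while Ltbp1 (-1.80) and Adamts17 (-1.32) were past it toward wCAPs, 2 in each direction among 40 tested list genes, where 2.25% and 1.6% of all genes were. In BAT Ltbp4 (1.08), a partner of fibulin-5 in elastic fibre assembly, and Adamtsl5 (1.01), which binds fibrillin-1, were higher in bFAPLs. In WAT both went the same way within the fold, at 0.98 and 0.76. Adamts17 (-1.53) and Adamtsl3 (-1.11) were higher in bCAPs, so that 3 and 2 of 42 tested list genes were past the fold, where 1.86% and 2.01% of all genes were.

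Between the FAPLs of the depots 2 of 42 were past it, the proteoglycan Vcan (versican), at 506 CPM in wFAPLs and 246 CPM in bFAPLs (log2 ratio 1.04), and the ligand Bmp5, with 9 UMIs in wFAPLs and 144 in bFAPLs (-3.93), where 1.04% and 0.646% of all genes were past it in these directions. Between the CAPs 9 of 42 were past the fold, 4 toward wCAPs (2.18% of all tested genes) and 5 toward bCAPs (2.14%), led by Npnt (-2.98), Bmp5 (-2.61), Adamtsl3 (-2.01), Tll1 (-1.55), Ltbp1 (1.51) and Vcan (1.28). The medians of the tested list genes were -0.10 between depots, 0.13 and 0.12 between FAPLs and CAPs in WAT and BAT, -0.14 between FAPLs and -0.10 between CAPs.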

How the data were processed

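Per the labels, the authors sequenced 1 library of WAT and 1 of BAT precursor cells on the 10x Genomics platform for transcript 3′ ends, and the submitters' processing notes name Cell Ranger 7.0.1 and mm10. The deposited files hold raw UMI counts per gene and cell, unnormalized. Depth was 144451047 UMIs over 5261 cells in WAT and 205551320 over 7009 in BAT.

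Cells with 3900 to 7700 genes, 6000 to 60000 UMIs and 1.7 to 5% mitochondrial UMIs were kept, as in the study's methods. No doublet caller was run here. Cell types and clusters were the authors' labels, available here for 1999 cells per depot. They were carried to other cells by a vote of 15 nearest labelled neighbours (10 components, 2000 variable genes). Held-out labelled cells regained their type in 100% and 99.5% and their cluster in 91.0% and 87.2% of cases. Levels by cluster used labelled cells alone, and levels by depot used all precursors. Cycle phases used the gene lists of Seurat 5.3.0.

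UMIs were summed per population and given as CPM. A gene was tested at 10 CPM or more in either profile and counted at a fold of 2, with no p-value. For shares and spread, cells were thinned to 10000 UMIs. scipy 1.17.1, scanpy 1.11.5 and numpy 2.4.6 were used, and the ratio, its interval and the thinning were tested on simulated data. Named genes were all 10 members, up to 6 list genes past the fold per comparison, and the genes nearest in pattern (2 per member, 5 for their mean, Pearson over 14 clusters). The members, the lists and these rules were chosen with earlier results of these data known.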

Additional observations from a re-analysis of the deposited data

Results flagged for a closer look

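For 4 members the direction of a contrast differed between the depots or between the cell classes, with counting intervals that excluded 0 on both sides. The difference itself was not tested, since there is 1 library per depot. Fbln1 was higher in wFAPLs than in bFAPLs (log2 ratio 0.34) and lower in wCAPs than in bCAPs (-0.53). Efemp1 went the same way (0.26 and -0.43), as did Lox (0.23 and -0.27). Fbln2 was nearly level between wFAPLs and wCAPs (-0.039) and higher in bFAPLs than in bCAPs (0.52).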

How the results depend on the processing

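No paired analysis was possible because there is 1 library per depot, and for the same reason no replicate could be left out. The count of members past the fold between depots fell from 1 to 0 when levels were scaled by the median ratio of genes (Fbn2 at 0.98), when mitochondrial and ribosomal protein genes were left out of the total (just under 1.00), with male cells alone (0.96) and with clusters weighted equally (0.78). The 1 call in WAT over BAT is thus borderline, and scaling by the median ratio moved all genes by 0.04 there. For wFAPLs over wCAPs the count fell from 2 to 1 with male cells alone (Eln at 0.66) and with labels carried over to all precursors (Eln at 0.93). At a fold of 1.5 the count stayed at 1 between depots and was 3 for wFAPLs over wCAPs, 5 for bFAPLs over bCAPs, 2 for wFAPLs over bFAPLs and 2 for wCAPs over bCAPs, where 5.16%, 8.71%, 9.9%, 6.14% and 12.7% of all tested genes were past it. Fbln1 in bFAPLs over bCAPs lay within the fold under 6 alternatives, from -0.98 to -0.79, and Efemp1 was past it under 2, at -1.01 and -1.08. Of 420 single-gene values under alternatives, 291 stayed within the counting interval, 129 left it, and 14 changed sign, none of them a gene past the fold. Leaving the differentiating wFAPLs out of the correlations was added after the data were seen. Counting error was small for genes above 100 CPM, while Fbln1 and Efemp1 rest on the fewest UMIs, and the spread between animals is unknown.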

Other observations

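Among the 14 precursor clusters, the summed level of the 10 genes was highest in wFAPLs at 5235 CPM (95% interval 5183 to 5289) and lowest in bAPC 3 at 3141 CPM (3088 to 3193). Fbln2, Lox, Fbn1 and Fbn2 together made up most of the UMIs in every large cluster, and Lox alone made up 30.4% of them in bCAPs and 11.9% in wAPC 4. The share taken by Fbn2 was 18.8% in wCAPs, 16.3% in bCAPs, 10.9% in wFAPLs and 6.11% in bFAPLs.

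Within clusters, Mfap4 had the highest correlation of the 10 genes with the summed precursor markers Pdgfra, Pdgfrb and Dlk1 over thinned cells, 0.20 in WAT and 0.18 in BAT, and Lox that with the adipocyte markers in BAT (0.14). These are weak values over cells of 1 library each, and are given as a description.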
